A study of Homo sapiens with 5 samples.

Results

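Kinesins are motor proteins that use ATP to move along, bundle or take apart microtubules. One set of them builds the mitotic spindle, moves chromosomes and completes cytokinesis, and these genes are transcribed mainly in cells that are about to divide. Another set carries vesicles, organelles and ciliary cargo in cells at any stage. The mRNA levels of the kinesin superfamily were compared between RPE1 cells treated with doxorubicin, a DNA intercalator and inhibitor of topoisomerase 2, and cells treated with its solvent DMSO. The members were the genes of the deposited table whose symbol is KIF with a number and at most 1 letter from A to C, or KIFC with a number, which gave 42 of 26485 genes. By known function 14 of them were placed among the mitotic kinesins, 15 among the transport kinesins and 13 in a class of ciliary and other kinesins, which also holds members with mixed roles.

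RNA-seq was performed on 5 libraries of poly-A RNA from RPE1, an immortalized and established human line derived from the retinal pigment epithelium, with wild-type genotype. Of these, 2 came from cells kept in DMSO, 2 from cells in 0.2 µM doxorubicin and 1 from cells in 0.34 µM doxorubicin, each for 18 h. The libraries held between 23773061 and 36725345 counts on genes. All libraries come from a single cell line, and the 0.34 µM dose has 1 library.

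Of the cell type markers examined, MITF (42.9 ± 19.5 CPM in DMSO, SD, n = 2), OTX2 (26.4 ± 4.02 CPM) and KRT8 (357 ± 16.7 CPM) were present, while RPE65, RLBP1, TYR and TTR, which mark mature pigment epithelium, were each below 1 CPM in both groups. The other members of that list, BEST1 (0.770 ± 0.314 CPM in DMSO and 2.83 ± 1.40 CPM in doxorubicin) and PMEL (0.231 ± 0.0503 and 1.15 ± 0.261 CPM), did not overlap between the groups and did not pass the threshold. CPM are read counts scaled to a common library size after TMM normalization, and SD and SE are the standard deviation and the standard error. The summed leukocyte markers were between 0.191 and 0.313 CPM in DMSO and between 1.08 and 2.20 CPM in doxorubicin, with CD3E and HBB at 0. Nearly all of this sum came from PTPRC (0.232 ± 0.0590 and 1.72 ± 0.660 CPM). PTPRC did not pass the threshold in edgeR (adjusted p = 0.0212) and passed as higher in DESeq2. PTPRC and PMEL passed the filter on low counts only through their doxorubicin libraries. The summed endothelial markers were at most 7.90 CPM. The neuron list summed to between 194 and 386 CPM, nearly all of it from TUBB3 and MAP2. The epithelial list summed to between 584 and 696 CPM in DMSO and between 970.2 and 1177 CPM in doxorubicin. Nearly all of it came from KRT8 and KRT18, while KRT19, CDH1 and EPCAM were each below 1 CPM in every library. The part of these markers in the results was not tested.

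Doxorubicin lowered the mRNAs of the mitotic kinesins and of KIF24, and no kinesin passed the test as higher. Of the 42 members, 33 had enough counts to be tested, 4 had no count in any library, and the other 5 untested members never exceeded 9 counts. Among the 33, 13 fell and 0 rose at an adjusted p under 0.01 (quasi-likelihood test of edgeR, Benjamini-Hochberg adjustment over all genes tested), where 2.73% of all genes tested were called lower and 1.29% higher. At an unadjusted p under 0.05 there were 17 members, beside 30.8% of all genes tested, and DESeq2 called 15 lower and 2 higher, where it called 14.5% of all genes. Without DMSO replicate 2 the edgeR count of members was 8, all mitotic, since KIF2C, KIF11, KIF14, KIF22 and KIF24 missed the threshold. With all libraries, the 12 mitotic members tested were lower and passed the threshold. None of the 13 transport members did, and among the 8 tested members of the ciliary and other class only KIF24 did. The classes were drawn up with earlier results of these data known, so these counts describe the split and do not test it. KIF2A, which acts at spindle poles and in neurons and was not called, was placed in the ciliary and other class. The median log2 fold change was -3.78 for the mitotic and -0.045 for the transport kinesins, beside 0.013 over all genes tested. RNA of whole cultures was measured, so that fewer dividing cells and less RNA per cell cannot be told apart. By flow cytometry the study reports that a larger part of the cells was in G2/M after this treatment. The part of that shift in these mRNA levels was not tested.

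**Figure D1:**
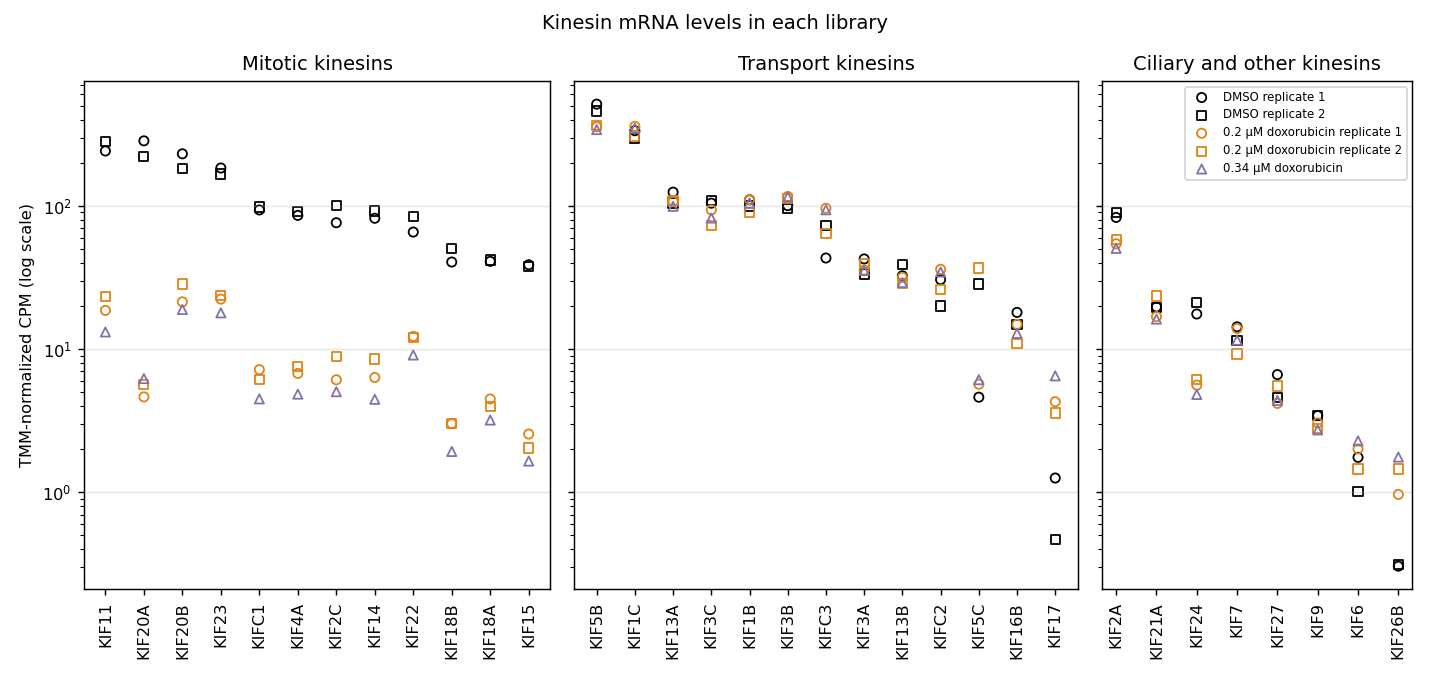
TMM-normalized CPM (log axis) of the 33 tested kinesins, with 1 symbol per library and genes ordered within each class by their DMSO mean. In the mitotic panel both DMSO libraries lie far above all 3 doxorubicin libraries for each of the 12 genes, while in the transport panel the symbols mostly overlap.

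Several members act in cytokinesis, when the cell is cut in 2. KIF20A (chromosome 5 of GRCh38, 138179112 to 138187723), which brings the chromosomal passenger complex to the central spindle, had 285 and 222 CPM in the DMSO libraries and 4.64, 5.70 and 6.23 CPM in the doxorubicin libraries (0.2 µM replicates 1 and 2, then 0.34 µM, an order kept throughout). The groups were far apart, with 1.83% to 2.46% of the DMSO mean left. Its log2 fold change of -5.52 (SE 0.21; edgeR adjusted p = 0.000322), a 45.7-fold fall, ranked 2nd from the lowest of all genes tested. Its annotated span overlaps that of CDC23, so that some of its counts could belong to that gene. KIF23, the motor of the centralspindlin complex, had 184 and 167 CPM in DMSO and 22.4, 23.7 and 17.9 CPM in doxorubicin, a log2 fold change of -3.04 (SE 0.17). KIF14, which acts with the kinase CIT at the midbody, had 81.9 and 92.0 CPM in DMSO against 6.34, 8.52 and 4.46 CPM (log2 fold change -3.76, SE 0.28). KIF20B, a relative of KIF20A, had 231 and 183 CPM in DMSO against 21.4, 28.5 and 18.9 CPM (log2 fold change -3.18, SE 0.22). In each of these genes the lowest DMSO library was well above the highest doxorubicin library.

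The motors that build the spindle fell as well. KIF11, also called Eg5, pushes antiparallel microtubules apart to separate the spindle poles. It was at 242 and 281 CPM in DMSO and at 18.6, 23.3 and 13.2 CPM in doxorubicin, a 14.3-fold fall (log2 fold change -3.83, SE 0.25; edgeR adjusted p = 0.000747). KIF15, which can support the same step, was at 38.8 and 37.8 CPM against 2.55, 2.04 and 1.65 CPM, an 18.5-fold fall. KIFC1, a motor directed to the minus end that focuses the poles, was at 93.7 and 98.1 CPM against 7.19, 6.11 and 4.49 CPM, a 16.2-fold fall. The groups did not overlap in any of the 3.

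The same held for the motors of chromosomes and of microtubule ends. KIF4A and KIF22 bind chromosome arms. KIF4A was at 85.8 and 91.3 CPM in DMSO and 6.77, 7.53 and 4.85 CPM in doxorubicin (log2 fold change -3.80, SE 0.22). KIF22 had the smallest fall of the mitotic kinesins, 6.73-fold, from 65.7 and 83.9 CPM to 12.26, 12.02 and 9.09 CPM (log2 fold change -2.75, SE 0.20; edgeR adjusted p = 0.00093). KIF2C, which depolymerizes microtubules at centromeres, was at 76.3 and 101 CPM against 6.11, 8.86 and 5.04 CPM, a 13.3-fold fall. KIF18A, which dampens the movements of chromosomes on the spindle, was at 41.0 and 41.9 CPM against 4.49, 3.99 and 3.20 CPM, a 10.7-fold fall. KIF18B, which acts at the ends of astral microtubules, was at 40.6 and 50.7 CPM against 3.02, 3.04 and 1.93 CPM, a 17.2-fold fall. For all 12 mitotic members the standard errors were between 0.17 and 0.28 and the adjusted p-values between 0.000322 and 0.00093 in the same edgeR test, and the groups did not overlap, as in 23.4% of all genes tested with doxorubicin lower.

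The remaining mitotic members could not be tested. KIF4B, an intronless copy of KIF4A, had 3 and 9 counts in DMSO and 0 in all 3 doxorubicin libraries, at least 6.66-fold lower when 3 counts are allowed over the doxorubicin group. Its counts are uncertain because reads of KIF4A could be assigned to it. KIF2B, a relative of KIF2C, had no count in any library.

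**Figure D2:**
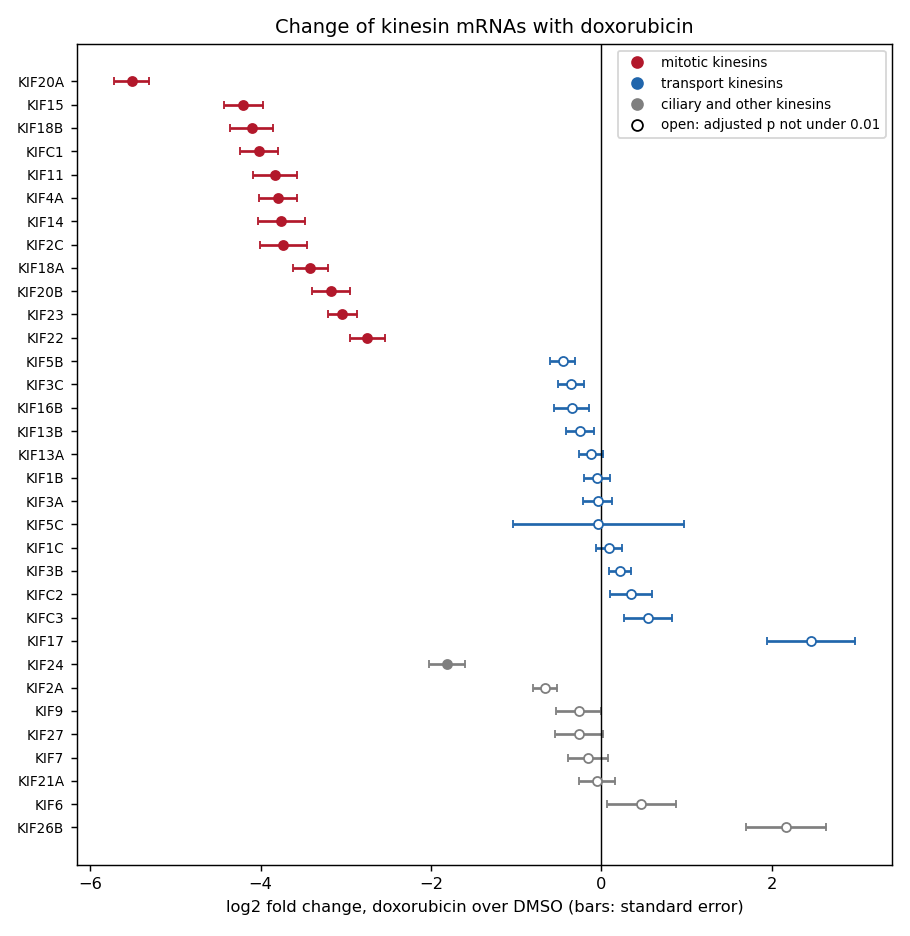
Log2 fold change of doxorubicin over DMSO for the 33 tested kinesins, with bars of 1 standard error and filled symbols for an adjusted p under 0.01 in edgeR. The 12 mitotic members lie between -5.52 and -2.75, and the transport members other than KIF17 lie near 0.

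The falls of the mitotic kinesins went along with those of the other genes of cell division. The proliferation markers MKI67, TOP2A, CCNB1, CDK1 and PLK1 summed to between 2236 and 2465 CPM in DMSO and between 146 and 216 CPM in doxorubicin. All 5 passed the threshold as lower, where 2.73% of all genes tested did. The part of a change in the number of dividing cells in the kinesin result was not tested. In a list of 14 genes that work with mitotic kinesins, all 14 passed as lower, again beside 2.73% of all genes tested. Without DMSO replicate 2 the count was 6, and at 0.34 µM alone it was 10. Their median log2 fold change was -3.46. CENPE, a kinesin of kinetochores that has no KIF symbol, had a log2 fold change of -3.59 (SE 0.36). PRC1, the bundling protein that recruits KIF4A, had one of -3.72 (SE 0.20), and TPX2, which binds KIF11, one of -3.59 (SE 0.20). RACGAP1 and ECT2, which work with KIF23 to place the cleavage furrow, had log2 fold changes of -3.05 (SE 0.21) and -2.57 (SE 0.19), and CIT one of -3.31 (SE 0.22).

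The sequences just before the start of these genes were examined for the letters of known elements of cell cycle promoters. The cell cycle genes homology region, which the DREAM and MuvB complexes bind, is commonly written TTTGAA. In some genes its form is TTCGAA. The factor NF-Y binds the box CCAAT. RefSeq promoters (GRCh38.p14, 250 bases before to 50 bases after a start) were found for 34 of the 42 members. For KIF5A, KIF13B, KIF19, KIF21B, KIF26B, KIF27, KIFC2 and KIFC3 none was matched. No mitotic member and no member called lower is among these, so the missing promoters all fall in the groups used for contrast. Among members with a promoter, TTTGAA on either strand was present in 10 of 14 mitotic kinesins (71.4%). It was present in 1 of 11 transport kinesins and in 0 of 9 ciliary and other kinesins with a promoter. The share was 18.2% over all 27305 genes with such a promoter. The 10 include KIF4B, the intronless copy of KIF4A, which was not tested. Among the 13 kinesins called lower, 9 had TTTGAA (69.2%). With TTCGAA included, 11 of the 13 kinesins that fell had a match (84.6%), against 19.5% of all genes. Of the 20 kinesins tested and not called, 15 had a promoter, and 1 of these 15 had a match. CCAAT was present in 11 of the 13 (84.6%) and in 39.7% of all genes. The matches of TTTGAA in the mitotic kinesins began between -55 and 31, counted from the first transcribed base as 1. KIF24 had TTCGAA at 2 and 3 matches of CCAAT. KIF20A, with the largest fall, had CCAAT at -94 and -67 but neither form of the homology region, and KIF2C had no match of any of the 3. Of the other genes called lower, 38.6% of 308 with a promoter had the homology region in either form, against 14.9% of 9892 that were tested and not called. Matches are letters only, and binding was not measured.

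The 100 bases before the start are shown for mitotic kinesins with the 3 patterns of matches and, for contrast, for transport kinesins that did not pass the threshold. Each is 5′ to 3′ on the strand of the gene, and capitals mark either form of the homology region or a CCAAT box on either strand, so that TTCAAA is the homology region when read from the opposite strand, and ATTGG likewise marks that box. KIF11, KIF4A, KIF18A and KIF23 have both elements close together:
KIF11, chr10:92593030-92593129, plus strand: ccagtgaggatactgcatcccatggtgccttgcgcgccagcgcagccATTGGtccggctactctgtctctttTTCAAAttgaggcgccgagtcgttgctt
KIF4A, chrX:70290004-70290103, plus strand: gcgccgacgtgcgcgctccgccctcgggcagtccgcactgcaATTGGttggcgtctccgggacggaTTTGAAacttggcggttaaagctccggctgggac
KIF18A, chr11:28108157-28108256, minus strand: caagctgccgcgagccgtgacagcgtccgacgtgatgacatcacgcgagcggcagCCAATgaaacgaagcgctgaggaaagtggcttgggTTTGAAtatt
KIF23, chr15:69414249-69414348, plus strand: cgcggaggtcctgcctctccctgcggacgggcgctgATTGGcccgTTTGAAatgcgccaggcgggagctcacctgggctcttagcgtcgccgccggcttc
KIF15 has only TTTGAA in this stretch, and KIF20A and KIFC1 only CCAAT (KIFC1 also has TTTGAA past the start, at 5). KIF22 has TTCGAA with CCAAT:
KIF15, chr3:44761694-44761793, plus strand: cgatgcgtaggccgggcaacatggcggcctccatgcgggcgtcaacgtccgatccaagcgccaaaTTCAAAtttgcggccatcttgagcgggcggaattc
KIF20A, chr5:138179012-138179111, plus strand: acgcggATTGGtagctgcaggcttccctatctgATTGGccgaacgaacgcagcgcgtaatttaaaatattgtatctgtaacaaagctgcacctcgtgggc
KIFC1, chr6:33391723-33391822, plus strand: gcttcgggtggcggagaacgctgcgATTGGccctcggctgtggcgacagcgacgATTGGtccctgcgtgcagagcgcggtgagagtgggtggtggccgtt
KIF22, chr16:29790651-29790750, plus strand: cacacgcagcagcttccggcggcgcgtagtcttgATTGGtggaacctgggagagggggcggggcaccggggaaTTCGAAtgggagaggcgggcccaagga
Among transport kinesins, KIF5B and KIF3B have a CCAAT in this stretch (KIF5B also has TTTGAA farther upstream, at -140), and KIF1C and KIF17 have no match:
KIF5B, chr10:32056426-32056525, minus strand: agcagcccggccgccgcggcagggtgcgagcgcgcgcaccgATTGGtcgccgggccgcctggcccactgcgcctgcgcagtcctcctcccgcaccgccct
KIF3B, chr20:32277551-32277650, plus strand: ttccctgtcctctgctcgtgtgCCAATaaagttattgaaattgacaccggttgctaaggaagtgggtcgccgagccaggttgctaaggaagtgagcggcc
KIF1C, chr17:4997850-4997949, plus strand: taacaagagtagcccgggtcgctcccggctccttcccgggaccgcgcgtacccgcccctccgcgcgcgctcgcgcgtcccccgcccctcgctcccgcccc
KIF17, chr1:20718008-20718107, minus strand: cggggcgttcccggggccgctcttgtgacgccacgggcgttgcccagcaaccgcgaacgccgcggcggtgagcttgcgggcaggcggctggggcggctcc

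KIF24 was the 1 member outside the mitotic class that passed the threshold. It depolymerizes microtubules at centrioles and restrains the growth of primary cilia. It was at 17.6 and 21.2 CPM in DMSO and 5.61, 6.15 and 4.82 CPM in doxorubicin, so that the groups were apart, and fell 3.51-fold (log2 fold change -1.81, SE 0.21; edgeR adjusted p = 0.00355). The call was lost with any of the libraries left out, with adjusted p-values between 0.0116 and 0.0236 in edgeR, while the log2 fold change stayed between -1.95 and -1.69. Its span overlaps those of NUDT2 and UBAP1. KIF2A, a depolymerase of spindle poles and of neurons, had 83.0 and 89.5 CPM in DMSO and 54.4, 58.5 and 50.5 CPM in doxorubicin. The groups did not overlap, but its log2 fold change of -0.66 (SE 0.14) missed the threshold (edgeR adjusted p = 0.0261), which it passed with DESeq2.

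None of the 13 carriers of cargo tested passed the threshold in edgeR, which called 4.02% of all genes tested. In a list this short, 0 calls lie near that share. DESeq2 called 2 of them, where it called 14.5% of all genes. KIF5B, the ubiquitous heavy chain of conventional kinesin and the member with the most counts, had 513 and 459 CPM in DMSO and 357, 365 and 341 CPM in doxorubicin. The groups did not overlap, with a log2 fold change of -0.46 (SE 0.15) that missed the threshold in edgeR (adjusted p = 0.0839) and passed it in DESeq2. KIF1C, a carrier of vesicles, had 335 and 298 CPM in DMSO and 359, 303 and 348 CPM in doxorubicin, overlapping groups with a log2 fold change of 0.090 (95% interval -0.28 to 0.46). KIF1B, which carries mitochondria and vesicles, had a log2 fold change of -0.048 (95% interval -0.41 to 0.31), and KIF13A, which moves endosomes, one of -0.12 (95% interval -0.47 to 0.23). KIF3A and KIF3B form the motor that moves cargo into cilia, together with KIFAP3. KIF3A had a log2 fold change of -0.045 and KIF3B one of 0.22, and KIFAP3 had one of -0.058. KIF3C, a neuronal relative, had one of -0.36 (SE 0.15). KIF13B and KIF16B, the latter a motor of early endosomes, had log2 fold changes of -0.25 and -0.35. The motors directed to the minus end, KIFC2 and KIFC3, had log2 fold changes of 0.35 (SE 0.24) and 0.55 (SE 0.28), with groups that overlapped. Across the 13 transport members the groups did not overlap in 5, beside 47.7% of all genes tested in either direction. KIF1A and KIF5A, which are mainly neuronal, had at most 5 counts in any library.

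The largest positive values belonged to members with few counts, and none passed the threshold in edgeR with the filter and design used throughout. KIF17, a motor of dendrites and cilia, was counted 33 and 12 times in DMSO and 111, 86 and 236 times in doxorubicin. Both DMSO libraries were below all doxorubicin libraries, with a log2 fold change of 2.47 (SE 0.52; edgeR adjusted p = 0.0261). KIF17 passed in DESeq2 (adjusted p = 7.35e-05) and in edgeR without the filter on low counts (adjusted p = 0.00860). It also passed in edgeR with the replicate number as a block. Over all alternatives its adjusted p lay between 7.35e-05 and 0.0949. KIF26B, an atypical kinesin known from cell adhesion and polarity, was counted 8 and 8 times in DMSO and 25, 35 and 64 times in doxorubicin, a log2 fold change of 2.16 (SE 0.47; edgeR adjusted p = 0.0292, 0.00979 in DESeq2). KIF26B passed the filter on low counts only through its doxorubicin libraries.

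Of the other ciliary and mixed members, KIF7 and KIF27, which belong to a family known from Hedgehog signalling, had log2 fold changes of -0.16 and -0.26. KIF6 and KIF9, known from motile cilia, had values of 0.47 and -0.27, and KIF21A, which limits microtubule growth, one of -0.055. The adjusted p-values of these 5 lay above 0.4 in edgeR. KIF12, KIF19 and KIF25 had no count in any library, KIF21B had at most 4 counts and KIF26A at most 2.

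In sum over the members, kinesin mRNA was about 1.98-fold lower in doxorubicin, and most of the difference was in the mitotic class. The mitotic kinesins summed to 1465 and 1451 CPM in DMSO and to 116, 133 and 90.9 CPM in doxorubicin, a ratio of means of 12.9. The transport kinesins summed to 1461 and 1376 CPM in DMSO and to 1368, 1264 and 1310 CPM in doxorubicin, a ratio of 1.08. The groups did not overlap in either sum. The exact permutation test over 10 splits, with the smaller tail doubled, gave p = 0.2 for both. That is the smallest value this form of the test can give with 2 against 3 libraries. It is reached whenever the groups do not overlap, so the test does not tell the 2 sums apart. Mitotic members made up 47.7% (95% exact binomial interval 47.3% to 48.0%) and 48.7% (48.4% to 49.1%) of kinesin counts in the DMSO libraries. In doxorubicin the shares were 7.30% (7.05% to 7.56%), 8.85% (8.56% to 9.15%) and 6.08% (5.88% to 6.29%). These intervals cover counting error only. Per kilobase of transcript the mitotic share was 60.1% and 61.1% in DMSO and 11.3%, 13.4% and 9.46% in doxorubicin.

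**Figure D3:**
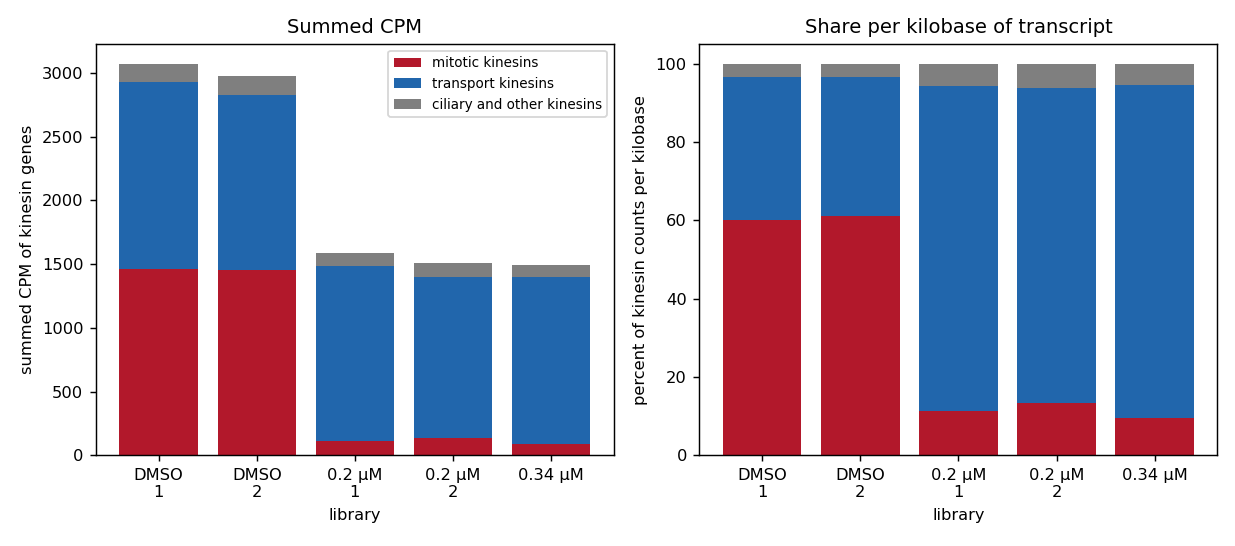
Summed CPM of the kinesin genes by class in each library (left) and the share of each class in kinesin counts per kilobase of transcript (right). The mitotic part shrinks from at least 1451 CPM in both DMSO libraries to 133 CPM or less in the doxorubicin libraries, while the transport part stays at 1264 CPM or more.

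The order of the members by level also changed. In CPM per kilobase of transcript, the highest in DMSO were KIF5B (82.9 ± 6.53, SD, n = 2) and KIF20A (81.8 ± 14.3), which differed by less than their spread. KIF11 (52.1 ± 5.58), KIF23 (47.9 ± 3.23), KIFC1 (40.1 ± 1.31) and KIF1C (40.0 ± 3.28) followed, and KIF11 and KIF23, like KIFC1 and KIF1C, lay within the larger SD of the pair. Of the 10 highest members in DMSO, 8 were mitotic. In doxorubicin, KIF5B (60.4 ± 2.11, SD, n = 3) was followed by KIF1C (42.6 ± 3.73), KIFC3 (25.2 ± 5.36) and KIF3B (18.8 ± 0.376), and 9 of the 10 highest were transport kinesins. The highest mitotic member was then KIF23, at 5.83 ± 0.827, and KIF20A was at 1.78 ± 0.261.

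Both doses were examined in a fit of 3 conditions. Each of the 12 mitotic kinesins tested passed the threshold at 0.2 µM, where 1.21% of all genes were called (0.93% as lower), and at 0.34 µM, where 0.627% were (0.472% as lower). Both contrasts share the DMSO libraries. The median log2 fold change of the mitotic kinesins was -3.60 at 0.2 µM and -4.24 at 0.34 µM. For 11 of the 12, the 0.34 µM library was the lowest of all. The exception was KIF20A, for which it was the highest of the 3 doxorubicin libraries. Between the doses edgeR called 0 kinesins, as it called 0% of all genes, with 0 kinesins at an unadjusted p under 0.05 in edgeR and in limma voom and 1 in DESeq2. The median log2 difference of the mitotic kinesins, 0.34 µM minus 0.2 µM, was -0.52. The intervals are wide: the difference was -0.67 for KIF11 (95% interval -1.35 to 0.0071), -0.73 for KIF14 (-1.50 to 0.031) and 0.27 for KIF20A (-0.43 to 0.97). Since the 0.34 µM library has no replicate, its variability was taken to equal that of the DMSO and 0.2 µM pairs. It is also the deepest library.

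**Figure D4:**
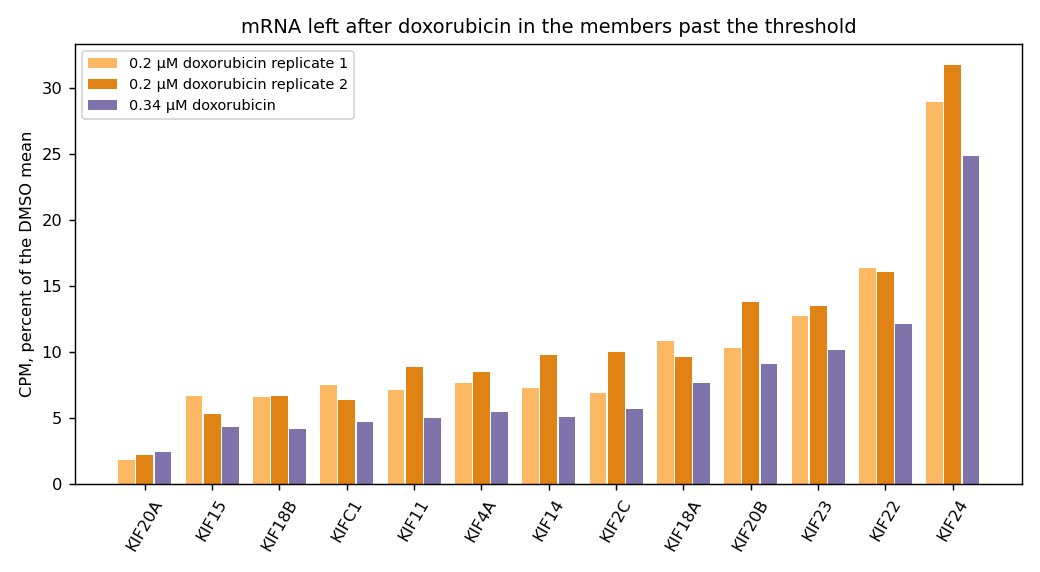
CPM of the 13 kinesins past the threshold in each doxorubicin library, as a percentage of the DMSO mean. The mitotic members kept between 1.83% and 16.4% of their DMSO level, and the 0.34 µM bar is the lowest for each gene except KIF20A.

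The genes that link kinesins to cargo and the opposing motor did not follow the mitotic kinesins. Of 15 adaptors and light chains (among them KLC1 to KLC4, KIFAP3, TRAK1 and TRAK2), 14 were tested and 0 passed the threshold in edgeR, which called 4.02% of all genes tested. In edgeR 3 had an unadjusted p under 0.05, beside 30.8% of all genes tested. DESeq2 called 1, where it called 14.5% of all genes. Their median log2 fold change was 0.20. Of 17 subunits of cytoplasmic dynein and dynactin, which carry cargo the other way along microtubules, 16 were tested and 0 passed in edgeR or DESeq2. In edgeR 1 had an unadjusted p under 0.05, again beside 30.8% of all genes, and the median was 0.097. In lists this short, 0 edgeR calls lie near the share of 4.02%, so these counts do not set the 2 lists apart from all genes tested. The lowest log2 fold changes were -0.40 among the adaptors and light chains and -0.16 in dynein and dynactin. Those of the 12 mitotic kinesins tested were -2.75 or lower.

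KIF5C was the member with the largest spread between replicates, and it was singled out after its values were seen. This conventional kinesin of neurons had 121 and 728 counts in the DMSO libraries, 147 and 887 in the 0.2 µM libraries and 222 in the 0.34 µM library. The second replicates were thus 6.18-fold higher than the first in DMSO and 6.49-fold higher in 0.2 µM doxorubicin, while the 0.34 µM library was near the level of the first replicates. Its log2 fold change with treatment was -0.035 (SE 1.01), and with libraries left out in turn it lay between -1.48 and 1.78. Among all genes tested, 9 (0.0634%) were higher in replicate 2 by as much in both conditions. For the other tested kinesins the largest difference within a pair was 1.28 on the log2 scale, in KIF17. Among the cell type markers, the endothelial gene CDH5 had counts of 2 and 56 in DMSO, 4 and 69 at 0.2 µM and 5 at 0.34 µM, which is 3.90 and 3.67 higher on the log2 scale in the second replicates. The endothelial gene KDR (1.02 and 1.80) and the neuronal gene SNAP25 (1.25 and 1.33) were also higher there. Other members of the 2 lists were not: VWF (0.038 and -1.18), SYP (-0.24 and -0.74) and TUBB3 (0.92 and -0.43) were lower in the second replicate at 0.2 µM. MAP2 (0.17 and 0.47) was slightly higher in both conditions. PECAM1 (0.72 and 0.64) was also higher in both conditions, though it never exceeded 13 counts. RBFOX3 never exceeded 3 counts. The part of other cell types in this difference was not tested. KIF5C overlaps KIF5C-AS1, and whether counting used strand is not stated.

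**Figure D5:**
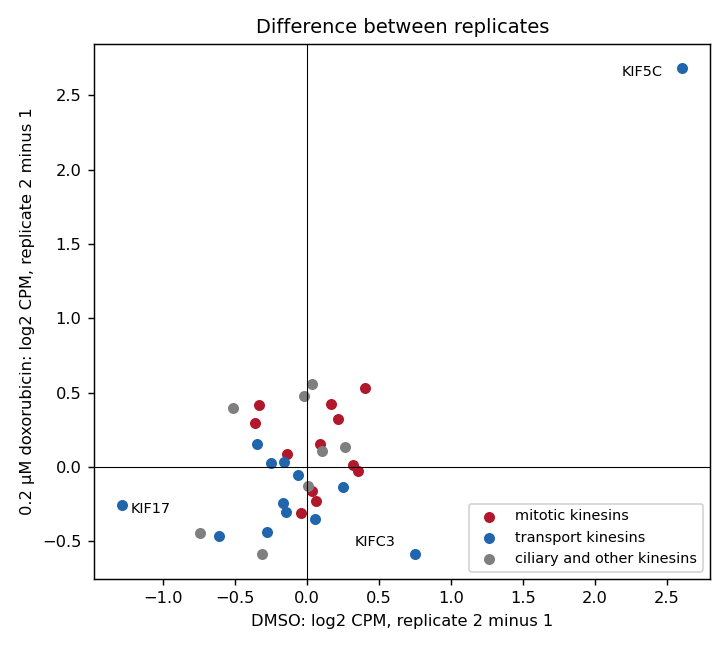
Difference of log2 CPM between replicate 2 and replicate 1 in DMSO (x axis) and in 0.2 µM doxorubicin (y axis) for the 33 tested kinesins. KIF5C lies alone at 2.61 and 2.68, and the other members lie within 1.28 of 0 on both axes.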

How the data were processed

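For 5 poly-A libraries the authors deposited unnormalized gene counts. Per the study, STAR mapped the reads to hg38 and Rsubread counted them on iGenomes genes; tool versions and use of strand were not found. A deposited table of the DESeq2 comparison by the authors, with mean normalized counts, fold changes and p-values, was not used. Doses are those of the sample labels; the protocol text gives far higher values.

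Analysis used edgeR 4.0.16 in R 4.3.3 (quasi-likelihood test, TMM). The default filter (count minimum 10, total minimum 15) kept 14187 of 26485 genes. The 3 doxorubicin libraries were pooled against 2 DMSO libraries, as in the study's methods, with a threshold of an adjusted p of 0.01. DESeq2 1.42.0 and limma 3.58.1 (voom) were alternatives, beside normalization, filter, dose, depth (thinning), threshold, left-out libraries and a replicate block. SE is the size of the log2 fold change over the root of F, and 2 was the prior count of log2 CPM. The study calls the replicates biological; the labels do not name cultures, so p-values measure the spread between libraries. The pipeline was tested on simulated data. Replicates differed by far more than sampling noise (chi-square per degree of freedom 117 and 75.3). Transcript lengths are those of MANE Select transcripts in GENCODE v44, or the longest transcript for KIF5C. Positions and promoters are from RefSeq on GRCh38.p14. All members are named, with statistics for mitotic members, those past the threshold and those with a mean of at least 10 CPM. The members, classes, lists and motifs were chosen with earlier results of these data known.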

Additional observations from a re-analysis of the deposited data

How the results depend on the processing

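The 12 mitotic calls held with DESeq2, limma voom, DESeq2's size factors, no filter, thinned counts and either dose alone. With libraries left out in turn, between 8 and 12 kinesins were called. Without DMSO replicate 2, KIF2C, KIF11, KIF14 and KIF22 missed the threshold (edgeR adjusted p between 0.0103 and 0.0128), as did 8 of the 14 partners of mitotic kinesins, whose count was between 6 and 14, and only 49 genes were called in all. The count for ciliary and other kinesins was 0 without any 1 library, and 0 at 0.2 µM or 0.34 µM alone. The median of the mitotic kinesins stayed between -4.00 and -3.60 with libraries left out and was -4.24 at 0.34 µM alone. The transport median was between -0.14 and 0.019. DESeq2 called 2 transport kinesins (KIF5B lower, KIF17 higher), 3 ciliary and other kinesins (KIF2A, KIF24 and KIF26B) and 1 partner of transport kinesins, of 2062 genes in all against 571 in edgeR. At an adjusted p of 0.05 these counts were 1, 3 and 1, of 1927 genes. Without a filter 1 transport kinesin (KIF17) passed, of 1020 genes. Per kilobase, the mitotic share of kinesin counts was 60.6% in DMSO and 11.4% in doxorubicin, against 48.2% and 7.41% of counts. No direction of a called value reversed. The causes of these changes were not tested.

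The labels do not say what a replicate number shares. Across 14187 genes, which are not independent, the log2 difference between the replicates in DMSO correlated with that in 0.2 µM doxorubicin (Pearson's r = 0.527), with only 2 pairs. A fit of the DMSO and 0.2 µM libraries with the replicate number as a block (replicate block) called 14 kinesins, 1 of them a transport kinesin, KIF17 (adjusted p = 0.00182), and 1121 genes in all, against 12 kinesins and 178 genes for these 4 libraries without the block. In the titles only the second replicates carry a number, and libraries without one were taken as replicate 1. The 0.34 µM dose has no second library to form a pair. Depth limits the 9 untested members, which had at most 9 counts in a library.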
